A study of Heliconius erato cyrbia and Heliconius erato demophoon with 32 samples.

Results

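The change in transcript levels between 2 stages of pupal development was followed in the main wing of Heliconius erato cyrbia, the iridescent blue subspecies of a Neotropical butterfly. The comparison took 8 of the 32 RNA-seq libraries of the series, chosen by their labels: 4 animals at 50% of pupal development (animals 1, 2, 3 and 4) and 4 different animals at 70% (animals 9, 10, 11 and 12). The main wing was the forewing pooled with the posterior hindwing, and the anterior hindwing of each animal was sequenced as a separate library. Animals came from captive populations kept at 25°C on Passiflora biflora, with no treatment. The other libraries held the anterior hindwing of these animals and both regions of H. e. demophoon, which lacks the iridescent blue, at the same stages, with 4 animals per group. Each library came from 1 animal, so that the spread between libraries included the spread between animals. In cyrbia, animals 1 and 4 were male and animals 2 and 3 female at 50%, while all 4 animals at 70% were male. The demophoon groups held 3 females and 1 male at each stage.

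Butterfly wing scales are cuticular outgrowths of epidermal cells of the pupal wing. Scale cells send out elongated buds shaped by bundles of actin filaments and later secrete cuticle, built of chitin and cuticle proteins, which forms the longitudinal ridges and the cross-ribs between them. In the iridescent scales of Heliconius the ridges are layered, and these layers reflect blue light. Pigments are laid down in the hardening scales late in pupal life. RNA of the whole wing tissue was measured, so a difference in the number of cells of a type and a difference in RNA per cell cannot be told apart.

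The unit of measurement was the locus, a stretch of transcribed genome for which reads were counted. The count table held 24118 loci, and 13055 of them were tied by ID to a gene model, while 11063 were not. None of the IDs matched the RefSeq gene table used here, so no locus was given a gene name or function, and the labelled tissue could not be checked against marker genes. Position was read from the gene model ID, which gives the scaffold (its first digits give the chromosome) and the order of the model on that scaffold. Loci with no gene model were placed by their number between loci with one, and 398 of the 15485 tested loci were not placed.

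Library totals ran from 12966760 counts (animal 9) to 52512095 (animal 3). Log2 levels correlated between animals of the same stage with r of 0.928 to 0.973 at 50% and 0.929 to 0.956 at 70%, and between stages with r of 0.809 to 0.84, as a description over all loci tested. Within the 50% stage, animals 1 and 2 were closest to each other (r of 0.973) and animals 3 and 4 next (0.947). These pairs did not follow sex. They did follow the library numbers in the labels, where animals 3 and 4 came before animals 1 and 2. A part of library order in these pairs was not tested. The coefficient of variation between animals fitted over all loci was 0.682 at 50% and 0.641 at 70%. The library numbers in the labels ran with stage, so that library order and stage cannot be told apart.

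Of the 15485 loci tested in the main wing, 4040 (26.1%) differed between the stages at a false discovery rate (FDR) below 0.05 in edgeR's quasi-likelihood test. These are called DE loci here, and a locus rose where it was DE and higher at 70%, and fell where it was DE and lower at 70%. In all, 1911 loci rose (12.3% of those tested) and 2129 fell (13.7%), while the median log2 fold change over all tested loci was -0.02. Which direction held more loci depended on the settings: 2092 rose and 1899 fell with RLE factors, 2530 and 2281 with DESeq2, and 1569 and 1464 with the 8 libraries fitted alone. When only the 2 males at 50% were set against the 4 males at 70%, 1351 loci rose and 1732 fell, and 2826 of these 3083 were among the 4040, every one in the same direction. Without animals 3 and 4 the number of DE loci was 3143, of which 2633 were shared, and without animals 1 and 2 it was 3268, of which 2788 were shared. The filter on low counts was rerun on the libraries kept, so the number of loci tested changed too. It was 12975 with the 8 libraries alone and 17741 with males alone. Without animals 3 and 4 it was 17830, and without animals 1 and 2 it was 17767.

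The animals of the 2 stages did not overlap in level at 1558 of the 1911 risen loci and 1668 of the 2129 fallen loci. Over all tested loci, called or not, 3932 (25.4%) had no overlap between the stages. Levels are given as CPM, the counts scaled to a common library size with TMM factors, and not corrected for the length of the locus. A typical risen locus had a median mean level of 4.56 CPM at 50% and 20.1 CPM at 70%, and a typical fallen locus had 33.8 CPM at 50% and 12.6 CPM at 70%.

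Rises were larger than falls as log2 fold changes. Where a locus had no count in any library of a stage, its fold change was set to a lower bound, taking 3 counts per library as the floor, which covers counting error only. On that scale the median risen locus was at a log2 fold change of 2.04 and the median fallen locus at -1.33. The median standard errors (SE) of the fitted values were 0.40 and 0.28. Each SE was worked back from the fitted log2 change and the F statistic of its edgeR test. It thus carries no evidence beyond that test. At least a 4-fold difference was reached by 974 risen and 691 fallen loci, and at least 16-fold by 414 risen and 239 fallen loci. Plotted against level as fitted, without the lower bound, the DE loci spread to larger fold changes on the risen side. Fitted values of loci with no counts at a stage give no bound, and there were 153 such risen and 77 such fallen loci.

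**Figure D1:**
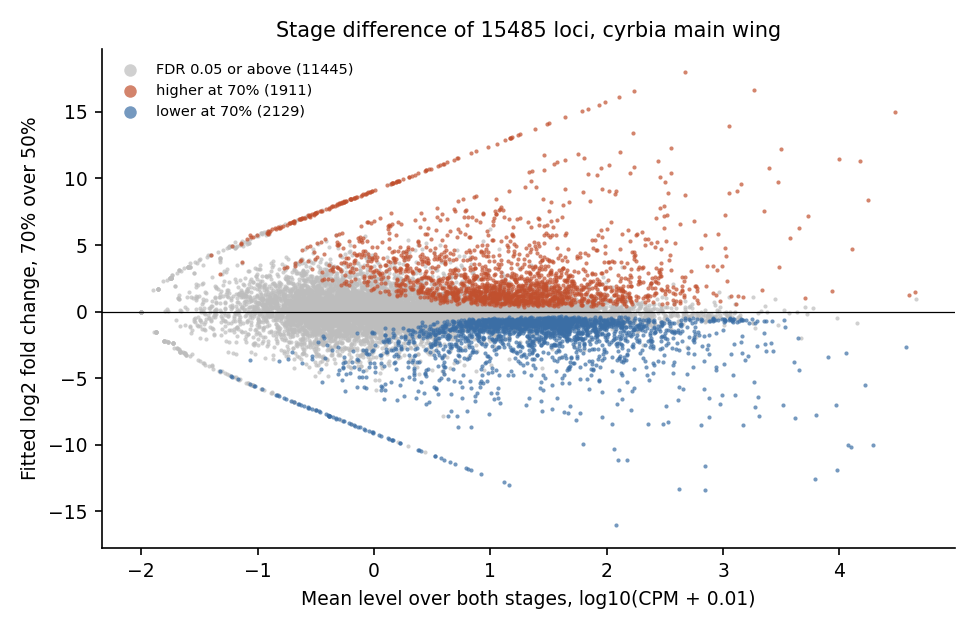
Log2 fold change between stages (70% over 50%, vertical axis) against the mean level of each tested locus over both stages as log10(CPM + 0.01) (horizontal axis), with each point a locus and the 1911 risen and 2129 fallen loci coloured. Values are as fitted, without the lower bound, so those of loci with no counts at a stage give no bound. On this scale loci that rose spread to larger changes than loci that fell, and the median over all tested loci lay at -0.02.

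Some loci had counts at one stage alone. There were 153 risen loci with no count in any of the 4 animals at 50%, and 88 of these had counts in all 4 animals at 70%. In the other direction, 77 fallen loci had no count in any animal at 70%, and 43 of these had counts in all 4 animals at 50%. The 88 loci lay on 20 chromosomes, 57 of them carried a gene model, and their mean level at 70% had a median of 2.71 CPM and a maximum of 939.7 CPM, with 7 loci at 100 CPM or more. The 43 loci included 21 with a gene model, and their mean level at 50% had a median of 1.62 CPM and a maximum of 241.9 CPM. Most loci with counts at one stage alone were thus of low level.

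The share of DE loci was read by level, taken from the stage where a locus was higher. The change itself thus helped to set the class of a locus, and these shares are a description. Of the 4006 tested loci below 1 CPM in the stage where they were higher, 2.90% rose and 1.42% fell. Of the 5230 loci between 1 and 10 CPM, 9.90% rose and 7.65% fell, and of the 4961 loci between 10 and 100 CPM, 18.9% rose and 23.4% fell. Of the 1103 loci between 100 and 1000 CPM, 26.8% rose and 38.1% fell. At 1000 CPM or more there were 185 loci, of which 43 rose (23.2%) and 92 fell (49.7%). Among the loci at 1000 CPM or more, 24 risen and 29 fallen loci differed by at least 16-fold.

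Loci with and without a gene model differed in the share that was DE. Of the 9254 tested loci with a gene model, 15.25% rose and 19.01% fell, and of the 6231 without one, 8.02% rose and 5.94% fell. The balance between rises and falls depended on scaling, since a fit to the loci with a gene model alone gave 1748 risen and 1577 fallen loci. Loci without a model were also lower in level, with a median of 1.10 CPM against 13.9 CPM, and the part of level in this difference was not tested.

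Most of the counts in every library belonged to loci that were DE. The risen loci together took 10.7%, 10.4%, 6.46% and 8.51% of the counts in animals 1, 2, 3 and 4 at 50%, and 54.6%, 49.3%, 54.9% and 56.5% in animals 9, 10, 11 and 12 at 70%. The fallen loci took 56.2%, 58.2%, 63.0% and 61.3% at 50%, and 11.9%, 14.7%, 14.0% and 10.9% at 70%. The remaining counts lay in loci that were not DE. These sets were defined by the same contrast, so the shares are a description. A few loci held much of the risen share at 70% and of the fallen share at 50%. The 10 loci with the most counts were picked anew in each library, so they could differ between libraries. In the risen set these 10 took 3.59% to 7.28% of all counts at 50% and 28.5% to 36.3% at 70%. In the fallen set, the 10 picked in the same way took 25.5% to 29.1% of all counts at 50% and 2.11% to 3.83% at 70%.

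**Figure D2:**
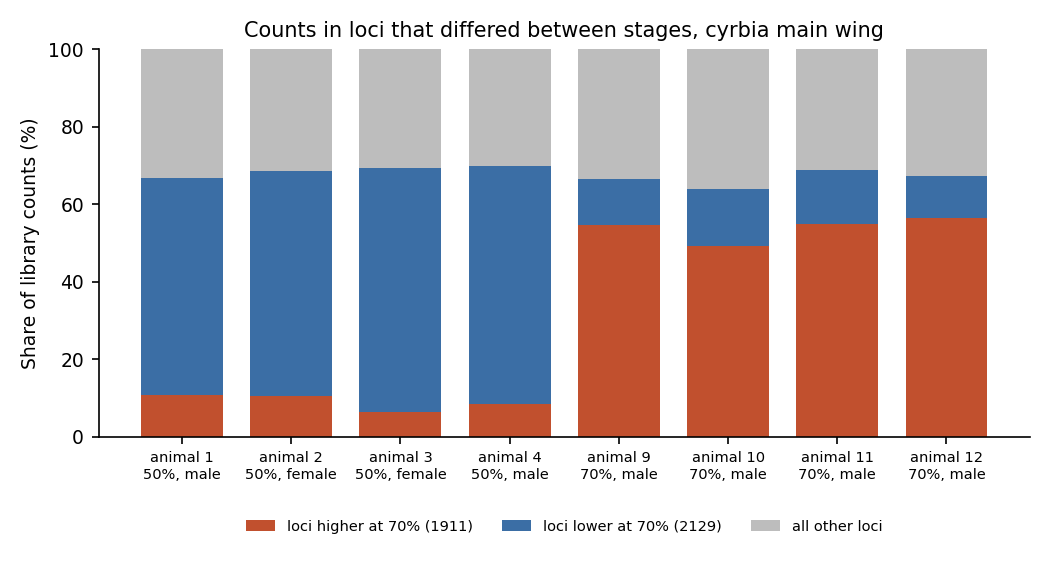
Share of the counts of each main wing library (vertical axis, percent) held by loci that rose, loci that fell and all other loci, for animals 1 to 4 at 50% and 9 to 12 at 70% (horizontal axis). Fallen loci held 56.2% to 63.0% at 50%, and risen loci held 49.3% to 56.5% at 70%.

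The dominance of abundant loci within a library was compared without reference to which loci changed. The 10 most abundant loci of each library took 33.7%, 30.0%, 30.2% and 26.9% of its counts at 50% and 39.6%, 35.8%, 32.9% and 42.7% at 70%. The lowest animal at 70%, animal 11, lay below the highest at 50%, animal 1. The means were 30.2% ± 2.80 and 37.8% ± 4.28 (SD, n = 4 each), a difference of 7.55 percentage points, with p = 0.0571 in a two-sided exact permutation test whose smallest possible p was 0.0286. Without animal 11 the difference was 9.16 percentage points and reached that smallest p. The 100 most abundant loci took 59.2% ± 1.66 at 50% and 60.4% ± 3.35 at 70% (SD, n = 4 each, exact permutation p = 0.60).

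The number of loci with at least 1 count, after every library was thinned to 12966760 counts, was 16110, 16275, 16170 and 15812 at 50% and 15748, 16400, 16781 and 16680 at 70%. Animal 9 gave the lowest of the 8 values. The means of 16092 ± 198.6 and 16402 ± 465.0 (SD, n = 4 each) differed by 310.5 loci, which was not significant (two-sided exact permutation test, p = 0.257). Without animal 9 the difference was 528.6 loci, at the smallest p of 0.0286, while leaving out any other animal gave exact permutation p from 0.229 to 0.486. With at least 10 counts asked of a locus the difference was 507.8 loci (p = 0.0857, exact permutation test), and in the anterior hindwing it was reversed (-334.5 loci, p = 0.40).

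Loci with a gene model, counts in all 8 libraries and no overlap between stages were ranked by their change in mean CPM, and the first 2 in each direction lay on chromosomes 14, 15 and 16. A larger rise was thereby left out, at MSTRG.13872 (1.85 to 60657 CPM), which had no count in animal 1 and is described with the region interaction. A locus without a gene model also rose by more than the second of the ranked loci. Among the ranked loci, the largest rise was at MSTRG.15061, at gene model 115 of scaffold Herato1505 on chromosome 15. It had 31697, 32248, 14380 and 17558 CPM in animals 1 to 4 and 53657, 62371, 60636 and 84264 CPM in animals 9 to 12. The rule itself required that the stages not overlap. Animals 3 and 4 were the lowest at 50%. The means were 23971 ± 9333 and 65232 ± 13235 CPM (SD, n = 4 each), a log2 fold change of 1.44 (SE 0.29, edgeR FDR 0.00162). In animal 12 this locus took 7.41% of all counts.

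The next largest rise was at MSTRG.16640, at gene model 149 of scaffold Herato1605 on chromosome 16. It had 33709, 18595, 16562 and 24885 CPM at 50% and 50248, 58930, 48192 and 63710 CPM at 70%. Animal 1 was the highest of the 50% stage. The log2 fold change was 1.24 (SE 0.26, edgeR FDR 0.00211).

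Among the ranked loci, the largest fall was at MSTRG.14588, a locus that spanned 3 gene models, the first of them model 96 of scaffold Herato1411 on chromosome 14. Counts at this locus cannot be split between the 3 models. It had 82228, 62576, 50451 and 64476 CPM at 50% and 9202, 18665, 4776 and 7565 CPM at 70%. In animal 1 this single locus took 7.67% of all counts. The means were 64933 ± 13097 and 10052 ± 6026 CPM (SD, n = 4 each), a log2 fold change of -2.69 (SE 0.60, edgeR FDR 0.00385).

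The other fall was at MSTRG.16637, at gene model 148 of scaffold Herato1605, next to the risen MSTRG.16640. It had 27309, 22936, 59762 and 45419 CPM at 50% and 15.8, 86.8, 27.1 and 20.8 CPM at 70%. Animals 3 and 4 were the highest at 50%, and animal 10 stood above the other animals at 70%. The means were 38857 ± 16999 and 37.6 ± 33.1 CPM (SD, n = 4 each), a log2 fold change of -10.01 (SE 0.81, edgeR FDR 4.8e-07). This locus was thus among those with the most counts at 50% and nearly without counts at 70%.

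**Figure D3:**
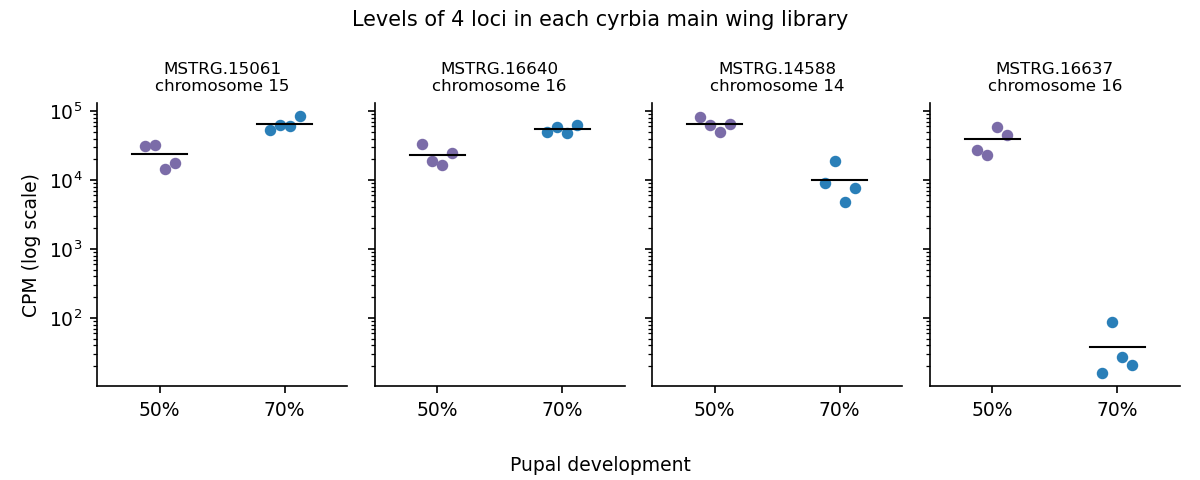
Levels of the 4 named loci in each main wing animal (points, CPM on a log scale) at 50% and 70% in cyrbia, with horizontal bars marking the means of 4 animals. The rule that chose the 4 loci required that the stages not overlap. MSTRG.16637 fell from 38857 to 37.6 CPM.

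The same 4 loci were read in demophoon and in the anterior hindwing as a description of other libraries. In the main wing of demophoon, mean levels at 50% and 70% were 21245 and 42127 CPM for MSTRG.15061, 15881 and 37334 CPM for MSTRG.16640, 68516 and 7557 CPM for MSTRG.14588, and 32920 and 46.2 CPM for MSTRG.16637. In the anterior hindwing of the cyrbia animals they were 18261 and 76360 CPM, 16398 and 61174 CPM, 55901 and 7069 CPM, and 40012 and 23.4 CPM, in the same order. No interaction of stage with subspecies (edgeR FDR 0.773 to 1.00) or with wing region (FDR 0.405 to 0.750) was significant at these loci. The log2 differences between the subspecies in the stage change were 0.46 (SE 0.40), 0.00 (SE 0.36), 0.49 (SE 0.80) and -0.54 (SE 0.78), in that order. Those between the main wing and the anterior hindwing were -0.63 (SE 0.28), -0.63 (SE 0.33), 0.33 (SE 0.28) and 0.74 (SE 0.27), so that some exceeded 2 standard errors although none passed the FDR threshold.

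MSTRG.16637 and MSTRG.16640 lie side by side in a stretch of scaffold Herato1605 where neighbouring loci had very high levels and moved in opposite directions. The locus at model 147 fell with its neighbour, from 12487, 10815, 25088 and 28030 CPM at 50% to 2.62, 10.1, 2.95 and 3.76 CPM at 70% (a log2 change of -11.93, with SE 0.97 and FDR 4.87e-07 in edgeR). As at MSTRG.16637, animals 3 and 4 were the highest at 50% and animal 10 the highest at 70%. A fall at a lower level was seen at model 145, from a mean of 17.9 ± 5.68 to 4.31 ± 0.344 CPM (SD, n = 4 each, FDR 9.11e-05).

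On the other side of the boundary, the locus at model 151 had 48625, 26995, 27527 and 21403 CPM at 50% and 72595, 72815, 10039 and 84344 CPM at 70%. In 3 of 4 animals at 70% it was above all animals at 50%, while animal 11 was below them, and it was not DE (log2 fold change 0.95, SE 0.64, edgeR FDR 0.321). Model 150 had means of 717.5 and 1550 CPM and was not DE (FDR 0.158). Model 152 rose from 1.93 ± 0.394 to 42.1 ± 11.6 CPM (SD, n = 4 each, FDR 3.67e-06).

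The 5 loci at models 147 to 151 together took 11.5%, 8.43%, 10.8% and 10.6% of all counts in animals 1 to 4 and 12.7%, 12.7%, 7.01% and 13.3% in animals 9 to 12. The part of that share in models 147 and 148 was 3.71%, 3.57%, 7.10% and 6.48% at 50% and at most 0.00925% in any animal at 70%. Models 149 to 151 took 7.81%, 4.87%, 3.74% and 4.12% at 50% and 12.7%, 12.7%, 7.01% and 13.3% at 70%, where animal 11 was below animal 1. The stretch as a whole thus overlapped in share between the stages, while models 147 and 148 did not. In demophoon, models 147 and 148 were also high at 50% and low at 70%, with means of 18478 and 6.59 CPM at model 147, and model 151 was below its 50% range in 2 of the 4 animals at 70% (9660 and 10658 CPM). Such neighbouring loci could include near-identical copies, between which reads may be split. No sequence was at hand to check this.

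**Figure D4:**
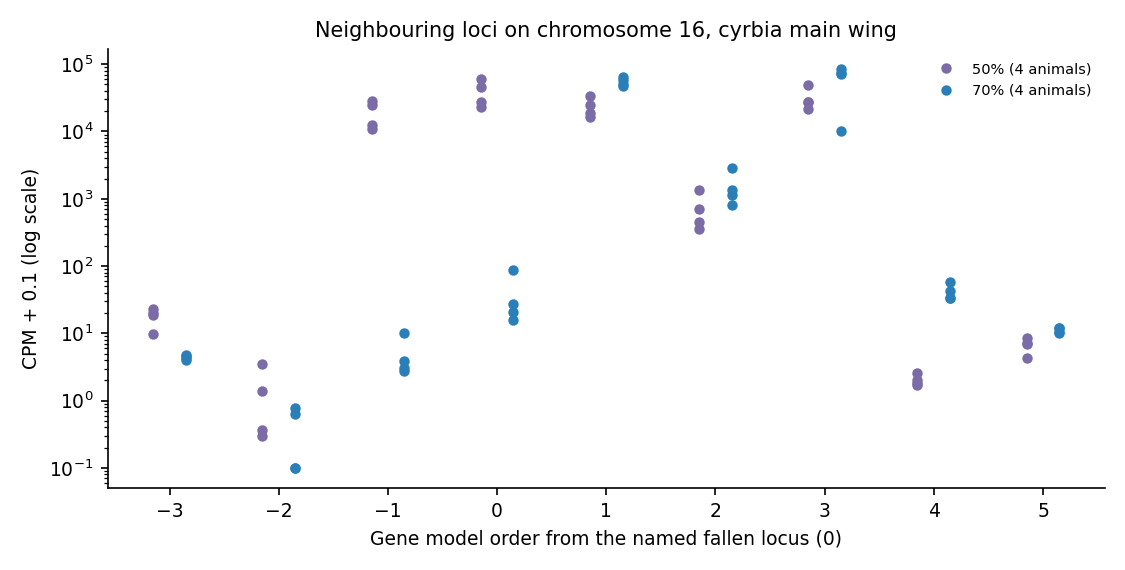
Levels of neighbouring loci on scaffold Herato1605 of chromosome 16 in the 8 cyrbia main wing libraries (CPM + 0.1, log scale) by the order of gene models from MSTRG.16637 (0 on the horizontal axis), with one point per animal. The loci at -1 and 0 were below 100 CPM in all animals at 70%, and the locus at 1 was at 48192 CPM or more in all 4.

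DE loci were found on all 20 autosomes and the Z chromosome. The share of tested loci that rose went from 9.07% on chromosome 4 to 15.15% on chromosome 12, with 15.09% on chromosome 18. The share that fell went from 10.52% on chromosome 15 to 18.11% on chromosome 14. Over loci with a gene model alone, the extremes lay on other chromosomes. There the share that rose went from 10.84% on Z to 17.66% on chromosome 18, and the share that fell from 14.44% on chromosome 9 to 23.17% on chromosome 17. Over the 15005 tested loci placed and ordered by number, 1.57% fell and 2.72% rose by at least 16-fold. That set leaves out loci with a gene model ID alone, which the chromosome shares include. Such falls made up 2.96% of the tested loci on chromosome 16 (17 of 574) and 2.77% on chromosome 14 (15 of 541). On chromosome 11 they made up 0.266% (2 of 753 loci). Rises of at least 16-fold made up 4.29% of tested loci on chromosome 2 (27 of 629), 3.83% on chromosome 13 (33 of 861) and 1.09% on chromosome 9 (5 of 458). With males alone, the share that rose went from 4.505% on chromosome 4 to 9.64% on chromosome 20, and the share that fell from 7.29% on chromosome 9 to 12.9% on chromosome 14.

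**Figure D5:**
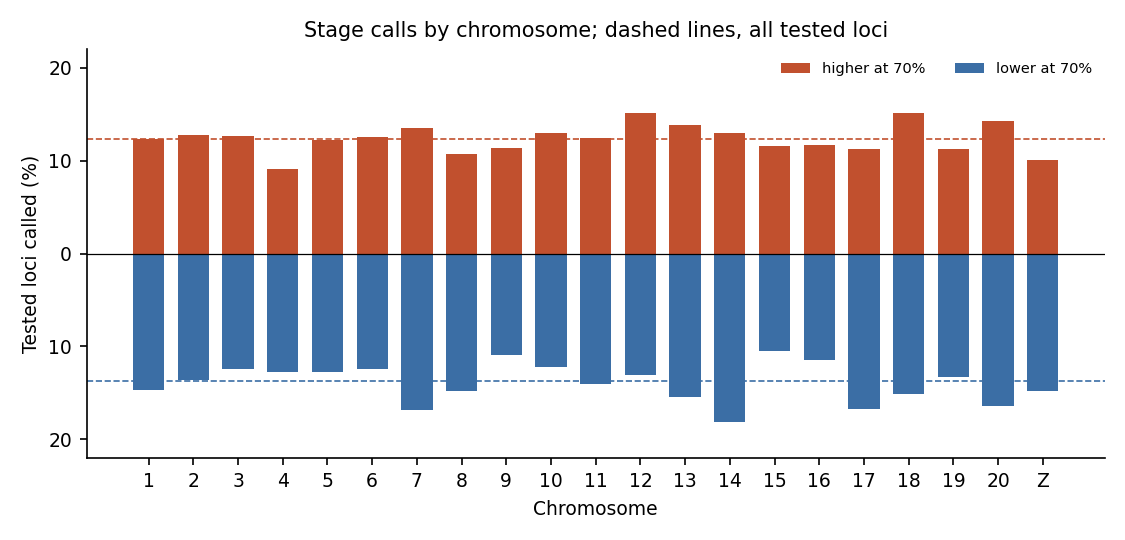
Share of the tested loci of each chromosome (percent, vertical axis) that rose (upwards) or fell (downwards) between 50% and 70%. Dashed lines mark the shares over all tested loci (12.3% and 13.7%), and Z is the sex chromosome. Shares that rose ran from 9.07% (chromosome 4) to 15.15% (chromosome 12) and shares that fell from 10.52% (chromosome 15) to 18.11% (chromosome 14).

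On the Z chromosome 58 of 576 tested loci rose (10.07%) and 85 fell (14.76%), against 12.65% and 14.01% on the other chromosomes. Among loci with a gene model, 10.84% of 323 Z loci rose and 20.43% fell, with a median log2 fold change of -0.29. The other chromosomes together had 15.44% and 18.99% and a median of -0.11. With TMM factors and all animals, Z had the lowest share of rises and the lowest median. Chromosomes 4 (11.07% rose) and 8 (11.18% rose, 20.88% fell, median -0.26) were close. Larger shares fell on chromosomes 14 (23.03%) and 17 (23.17%), among others. With RLE factors, fewer loci rose on chromosomes 8 (12.06%) and 4 (12.65%) than on Z (12.69%). With males alone, fewer rose on chromosome 4 (5.30%) than on Z (6.69%). The median stayed lowest on Z in both fits. Female butterflies have a Z and a W chromosome, and the 50% stage held 2 females and the 70% stage none. With males alone, the medians over loci with a gene model were -0.41 on Z and -0.10 on the other chromosomes.

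Loci that moved the same way lay next to each other more often than their shares of all loci. Over 9126 tested loci with a gene model and a place in the order, 15.4% rose, and 340 of 1393 risen loci (24.4%) were followed by another risen locus. In the same order 19.2% fell, and 398 of 1734 fallen loci (23.0%) were followed by a fallen one. A risen locus was followed by a fallen one in 15.4% of cases, and a fallen locus by a risen one in 12.2%. For changes of at least 16-fold, 45 of 281 risen loci (16.0%) were followed by a locus of the same kind, against 3.16% of all, and 16 of 144 fallen loci (11.1%), against 1.62% of all. With males alone, the shares were 17.0% for risen after risen, where 10.2% of all rose, and 18.4% for fallen after fallen, where 15.1% of all fell. No test was made of these shares.

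Runs were read in the same order of tested loci with a gene model, so loci without a model or not tested were passed over. There were 62 runs of 3 or more neighbouring risen loci, with 220 loci in all and at most 6 in a run. Fallen loci formed 61 such runs with 219 loci and at most 8 in a run. With males alone there were 24 risen runs (82 loci, at most 5 in a run) and 42 fallen runs (145 loci, at most 6). RLE factors gave 67 risen runs (237 loci, at most 6) and 45 fallen runs (160 loci, at most 6). The fallen run of 8 was thus not a run of 8 in either of these fits. In the order of all placed loci there were 99 risen runs (357 loci, at most 7 in a run) and 86 fallen runs (296 loci, at most 8). The 3 longest runs in each direction over loci with a gene model are described by position.

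The longest risen run over loci with a gene model held 6 loci on scaffold Herato0901 of chromosome 9, at low levels. They lay at models 59, 61, 62, 64, 74 and 76. Summed over the 6 loci, animals 1 to 4 had 30.2, 24.2, 20.6 and 30.2 CPM and animals 9 to 12 had 291.5, 351.3, 239.2 and 271.2 CPM. Model 62 rose most, from 5.20 ± 1.69 to 146.2 ± 30.9 CPM (SD, n = 4 each, log2 fold change 4.81, edgeR FDR 1.83e-07). In 5 of the 6 loci the stages did not overlap.

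The next run held 5 loci at models 2 to 6 of scaffold Herato1201 on chromosome 12, and none of the 5 overlapped between stages. The locus at model 6 had no counts in animals 1, 2 and 4 and 0.114 CPM in animal 3, and 3504, 5822, 2141 and 3377 CPM in animals 9 to 12. The loci at models 4 and 5 had no counts in any animal at 50%. Against the floor of 3 counts per library, model 4 was at least 320-fold and model 5 at least 1628-fold higher at 70%, with animal 10 the highest of the 4 at both (67.2 and 504.0 CPM). At model 5 there were only 0.973 and 0.589 CPM in animals 9 and 11, so its mean rested on animal 10. A smaller rise was seen at model 3, from 164.4 ± 37.6 to 584.8 ± 26.1 CPM (SD, n = 4 each, FDR 3.33e-06).

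The other risen run of 5 loci lay at models 143 to 151 of scaffold Herato1301 on chromosome 13. Its summed level was 1568, 1280, 369.7 and 795.2 CPM at 50% and 23483, 35514, 31216 and 33908 CPM at 70%. Most of it came from the locus at model 143, which rose from 967.9 ± 494.9 to 24727 ± 4083 CPM (SD, n = 4 each, log2 fold change 4.68, SE 0.38, edgeR FDR 5.58e-07). The loci at models 147, 149 and 151 were each highest in animal 10 among the animals at 70%, with 6210, 5832 and 87.3 CPM there. At model 146 animal 10 was instead the lowest of the 4 (794.9 CPM), and at model 143 animal 12 was the highest (28690 CPM).

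The longest fallen run held 8 neighbouring loci at models 222 to 229 of scaffold Herato1701 on chromosome 17. Its falls were small, with log2 fold changes from -0.84 to -0.49 and edgeR FDR from 0.000831 to 0.0496. The summed level was 988.2, 833.0, 1277 and 1256 CPM at 50% and 583.2, 771.0, 738.0 and 674.6 CPM at 70%. Most of it came from the locus at model 222, with a mean of 808.3 CPM at 50% out of a summed mean of 1089 CPM. In 6 of the 8 loci the stages did not overlap. The 8 loci moved by similar amounts, although their mean levels at 50% went from 14.3 to 808.3 CPM.

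The other fallen runs each held 6 loci, with no overlap between stages at any of the loci. One lay at models 2 to 10 of scaffold Herato1704 on chromosome 17, where log2 fold changes went from -2.92 to -0.83 and the summed level fell from between 105.3 and 132.4 CPM at 50% to between 44.1 and 54.7 CPM at 70%. The other lay at models 11 to 16 of scaffold Herato0821 on chromosome 8, where log2 fold changes went from -1.94 to -0.76. Its summed level was 957.6, 891.0, 1023 and 1075 CPM at 50% and 337.3, 485.9, 351.2 and 380.4 CPM at 70%.

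The stage change of cyrbia was set against that of demophoon in the same fit, to find loci whose change differed between the subspecies. The interaction was significant at 8 of 15485 loci (0.0517%), of which 1 had the higher log2 change in cyrbia and 7 the lower. Without adjustment, 1608 loci had p below 0.05. DESeq2 gave 338 loci on the same libraries, and the anterior hindwing libraries gave 31 in edgeR. Leaving out each animal in turn gave between 2 and 19 such loci, so the number rests on single animals. The locus with the lowest p was MSTRG.21177, at gene model 575 of scaffold Herato2001 on chromosome 20. In cyrbia it had 2.42, 3.51, 2.71 and 3.01 CPM at 50% and 0.973, 0.962, 2.14 and 0.330 CPM at 70%. In demophoon it had 2.69, 3.28, 2.78 and 7.47 CPM at 50% and 185.3, 159.9, 160.7 and 271.4 CPM at 70%. It fell in cyrbia, by 1.40 on the log2 scale (SE 0.45, edgeR FDR 0.0314), and was far higher at 70% in demophoon, and the log2 difference between the changes was -6.98 (SE 0.66, edgeR FDR 0.00039). With anterior hindwing libraries the difference was -5.52 and was not significant (FDR 0.0668).

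Another of the 8 loci rose in cyrbia from counts in every library at 50%. It lay at model 31 of scaffold Herato1805 on chromosome 18, with 0.523 ± 0.140 CPM at 50% and 235.9 ± 89.7 CPM at 70% (SD, n = 4 each). In demophoon it had no counts in the 4 animals at 50% and 335.6 ± 91.6 CPM at 70% (SD, n = 4), and the interaction had an edgeR FDR of 0.00713. It was picked out after its values were seen. At 70% the subspecies overlapped, from 120.8 to 323.4 CPM in cyrbia and from 211.9 to 415.3 CPM in demophoon, and the fitted difference rests on the low counts at 50%.

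The stage change of the main wing was also set against that of the anterior hindwing of the same 8 cyrbia animals, with animal as a block. The interaction was significant at 7 of 15596 loci (0.0449%), of which 2 had the higher log2 change in the main wing and 5 the lower. Without adjustment, 1535 loci had p below 0.05, and without the block no locus passed in edgeR, with 251 at an unadjusted p below 0.05. The lowest p was at MSTRG.13872, at gene model 707 of scaffold Herato1301 on chromosome 13. In the main wing it had 0, 10, 233 and 52 counts in animals 1 to 4 (up to 5.31 CPM) and 76089, 32610, 42285 and 91645 CPM in animals 9 to 12. In the anterior hindwing it had no counts at 50% in any animal and 65043, 23566, 41219 and 72576 CPM at 70%. Both regions thus went from few or no counts to among the highest levels in the libraries, and the log2 difference of -8.52 (SE 0.51, edgeR FDR 0.00784) rests on the 50% counts. A log2 difference fitted against libraries at 0 depends on the prior count, and neither it nor its SE gives a bound. Without the block it was -8.65 with an FDR of 1.00. At 70%, animals 9 and 12 were the highest in both regions.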

How the data were processed

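Total RNA of pupal wing tissue was extracted with QIAgen RNeasy and sequenced from TruSeq v2 libraries. The deposited values are raw counts of reads per locus. The submitters' processing notes name Trimmomatic 0.38, HISAT2 2.1.0, SAMtools 1.9, StringTie 1.3.5 and edgeR, while how the counting treated strand was not stated in the sources at hand. Of the loci, 1784 carried a gene model ID alone.

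Counts of the 16 main wing libraries were fitted in edgeR 4.0.16 (R 4.3.3) with 1 mean per subspecies and stage, TMM factors, filterByExpr and a robust quasi-likelihood F test. Benjamini-Hochberg FDR was taken over all loci tested, at 0.05, and the contrast was 70% minus 50%. The region interaction was fitted to the 16 cyrbia libraries with animal as a block. The labels give the same animal for both regions. Deviations from the group means correlated between the regions of an animal with r of 0.579 to 0.764, and all 8 animals matched their own other region best. Placing loci by number was checked on loci with a known scaffold, and 10853 of 10853 were placed right. The pipeline was tested on simulated data.

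Named loci were loci with a gene model, DE for stage, with counts in all 8 libraries and no overlap between stages: the 2 with the largest rise and the 2 with the largest fall in mean CPM. To these were added the locus with the lowest p of each interaction and the 3 longest runs in each direction. The comparison, its members and the rules were chosen with earlier results of these data known. Alternatives covered scaling, the filter, DESeq2 1.42.0, sex, wing region, the loci kept and each animal left out. Leaving out pairs of animals at 50%, and the RLE scaling of neighbours, were added after the data were seen.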

Additional observations from a re-analysis of the deposited data

Results flagged for a closer look

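At MSTRG.16637, animal 10 had 86.77 CPM at 70% while the other 3 animals had 15.8 to 27.1 CPM, a gap past Dixon's critical value for 4 samples. At MSTRG.21177, animal 8 of demophoon had 7.47 CPM at 50% while the other 3 had 2.69 to 3.28 CPM. These were 2 of 46 groups of 4 examined, and chance gives about 1 in 20.

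The stage change differed between subspecies at 8 loci, with MSTRG.21177 at the lowest p (log2 difference -6.98, SE 0.66). DESeq2 gave 338 loci, leaving out single animals gave 2 to 19, and MSTRG.21177 was not significant in the anterior hindwing (edgeR FDR 0.0668). It differed between wing regions at 7 loci, with MSTRG.13872 at the lowest p (log2 difference -8.52, SE 0.51). That value was fitted against anterior hindwing libraries with no counts at 50%, so it gives no bound, and without the block no locus passed in edgeR (251 at an unadjusted p below 0.05, FDR 1.00 for MSTRG.13872). The 8 and 7 loci were 0.0517% and 0.0449% of those tested, and 6 of each were also DE for stage in the main wing.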

How the results depend on the processing

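Under the scaling, filter, tool, sex, region and left-out-animal settings tried, the number of DE loci for stage stayed within 1.5 times 4040, from 3033 (the 8 libraries alone) to 4811 (DESeq2). The number of loci tested differed between settings, with 12975 for the 8 libraries alone and 15485 for DESeq2. An FDR below 0.01 left 2434, with 1179 risen and 1255 fallen. Leaving out each of the 16 animals gave 3328 to 4021 DE loci, 1608 to 1913 risen and 1669 to 2128 fallen. Restricting the fit to loci with a gene model moved the median log2 fold change by 0.13 and gave 1748 risen and 1577 fallen, and RLE factors gave 2092 and 1899. The 4 named stage loci kept their direction and an FDR below 0.05 in all 29 alternatives run for each.

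The subspecies interaction gave 338 loci with DESeq2, 31 in the anterior hindwing, and 2 to 19 without each animal (2 without animal 6, 11 or 12). The region interaction gave 0 loci with no replicate block, and 3 to 10 without each animal (3 without animal 1, 2 or 11). No paired analysis was possible because the 2 stages share no animal for the stage comparison itself.

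The difference in the share of the 10 most abundant loci was 9.81 percentage points in the anterior hindwing and 5.91 to 9.16 without each animal. The difference in detected loci was -334.5 in the anterior hindwing (exact permutation p = 0.40) and 184.2 to 528.6 without each animal. Risen loci followed by a risen one were 16.98% with males only, and fallen followed by a fallen one 18.43%, or 20.06% with RLE factors. How the calls depend on the number of animals or on depth was not tested.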
